A study of Mus musculus with 167 samples.

Results

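The mature microRNA (miRNA) content of whole C3H lung was compared between mice given whole thorax lung irradiation (WTLI) and sham irradiated controls, in 15 of the 167 tissue and blood cell libraries of the series. All 15 lung libraries of the strain were taken by their labels, 7 from irradiated and 8 from sham animals, and each came from a different mouse. The mice were female C3Hf/Sed/Kam animals of a gnotobiotic colony, irradiated or sham irradiated as young adults and sampled at month 4. WTLI was a single X-ray exposure of the thorax with lead shielding of the rest of the body, at a dose that many animals did not survive, so the irradiated group held survivors only. Lungs were rinsed with saline in the animal, frozen and homogenised whole, and no cell type was separated. The comparison asked which miRNAs differed in lung months after thorax irradiation, in a strain known for radiation pneumonitis. It was fitted together with 20 irradiated or sham C57 lung libraries, taken at month 6 from mice of both sexes. The changes were then set beside those of C57 lung and of the hearts of the same C3H mice.

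A miRNA is a short RNA cut from a hairpin precursor, which can leave a 5p and a 3p mature strand. It guides a silencing complex to messenger RNAs that match its seed, bases 2 to 8 from the 5′ end, so that miRNAs with 1 seed share many predicted targets. In lung, miR-126a is known as a product of endothelial cells, the miR-200 family of epithelial cells, and miR-34b/c and miR-449 of ciliated airway cells. miR-34a is a direct target of p53, the transcription factor activated by DNA damage, and miR-21a and miR-146 rise in inflamed and fibrotic tissue. Whole lung also holds striated muscle in the walls of its large veins, a possible source of small amounts of cardiac miRNAs.

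After irradiation, 22 of the 350 miRNAs that passed the count filter were higher (6.29%) and 12 were lower (3.43%) than in sham lung, 34 in all (9.71%). A call needed an adjusted p under 0.05, from limma with voom and quantile normalisation over the 350 miRNAs, and a log2 change of 1.17 or more in either direction, the fold minimum. The 2 largest rises were those of miR-7b-5p and miR-184-3p, at 4.55 ± 0.29 and 4.09 ± 0.36 on the log2 scale (fitted log2 change ± SE, 7 against 8 libraries). All other calls lay between -1.87 and 1.64. The higher calls further held miR-34a-5p, 3 strands of the miR-449 cluster, both strands of miR-21a, miR-146b and miR-335, and 5 miRNAs of the imprinted Dlk1-Dio3 cluster. The lower calls held the 3 myosin gene miRNAs miR-208a-3p, miR-208b-3p and miR-499-5p together with miR-101c and miR-151-5p. Without the fold minimum, 117 miRNAs (33.4%) had an adjusted p under 0.05, 57 of them higher (16.3%) and 60 lower (17.1%).

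Seeds and strands of the calls are shown first, because several calls shared a seed or a hairpin. Mature sequences were those of RefSeq for GRCm38.p6, the same assembly as the mm10 build of the deposited counts, and matched 31 of the 34 calls and 302 of the 350 tested miRNAs by name. Each sequence runs 5′ to 3′ with the seed in capitals. miR-34a-5p, miR-449a-5p and miR-449c-5p, which were all higher, have the same seed. Among the matched sequences miR-34b-5p also has it, with a log2 change of -0.25 (adjusted p = 0.52, limma). miR-34c-5p was tested but had no matched sequence, so its seed was not compared. Its log2 change was -0.03 (adjusted p = 0.90, limma).
miR-34a-5p: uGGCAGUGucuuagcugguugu
miR-449a-5p: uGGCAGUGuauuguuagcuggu
miR-449c-5p: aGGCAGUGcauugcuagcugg
The hairpin of miR-34a lies at chr4:150068454-150068555 on the plus strand. Those of miR-449a and miR-449c lie at chr13:113037534-113037624 and chr13:113035983-113036091, both inside introns of Cdc20b and on its strand.

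The pair with the largest rises and miR-21a-5p, the called miRNA with the most reads, each had a seed that no other call with a matched sequence had.
miR-7b-5p: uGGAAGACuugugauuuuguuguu
miR-184-3p: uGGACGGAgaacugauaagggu
miR-21a-5p: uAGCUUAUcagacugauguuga
The hairpins of miR-7b at chr17:56242988-56243098 (plus strand) and of miR-184 at chr9:89802260-89802328 (minus strand) overlapped no GENCODE gene other than small RNA genes. miR-21a at chr11:86584067-86584158 (minus strand) overlapped an exon of Vmp1. miR-7a-5p, which is 2 edits away from miR-7b-5p and shares its seed, had a log2 change of 0.33 ± 0.16 that did not pass the test (adjusted p = 0.12, limma), while its other strand miR-7a-1-3p fell (-0.68).

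Of the miRNAs that were lower, miR-208a-3p and miR-208b-3p share a seed and differ at 3 positions, counted from the 5′ end of miR-208a-3p as G10A, A16G and C18U.
miR-208a-3p: aUAAGACGagcaaaaagcuugu
miR-208b-3p: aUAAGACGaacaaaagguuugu
miR-499-5p: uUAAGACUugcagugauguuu
miR-101c: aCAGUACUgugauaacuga
The 3 muscle hairpins lie in introns of myosin heavy chain genes and on their strand, miR-208a in Myh6 (chr14:54949060-54949142), miR-208b in Myh7 (chr14:54975700-54975776) and miR-499 in Myh7b (chr2:155622880-155622958). The annotated miR-101c sequence is the same as bases 2 to 20 of miR-101a-3p, so reads of the abundant miR-101a-3p could be counted as miR-101c. How reads that match several miRNAs were assigned was not stated.

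The 15 libraries held 2722817 to 3980894 miRNA reads, with a log2 total of 21.76 ± 0.19 (SD, n = 7) after irradiation and 21.79 ± 0.10 (SD, n = 8) in sham lung (exact permutation test, two-sided p = 0.75). The first principal component of the normalised values (37.5% of the variance) separated all irradiated from all sham libraries. The second (16.1%) set irradiated replicates 1 and 2 apart, at -8.68 and -6.90, from the other 5 irradiated libraries at 2.64 to 5.39. In these 2 libraries the summed RPM (reads per 10 to the power of 6 miRNA reads of the library) of epithelial markers averaged 8889.9 against 17944 in the other 5, that of myeloid markers 2355 against 5083, of ciliated markers 3060 against 4618 and of mesenchymal markers 46816 against 63179. Endothelial markers went the other way, at 371445 against 315096. Their part in the results was not tested. Without both libraries 26 miRNAs were called, 25 of them among the 34, and the calls lost there are named beside their values. The titles carry a letter, A or B, of unstated meaning, that splits the irradiated libraries 3 to 4 and the sham libraries 4 to 4, with replicates 1 and 2 both under A. No 2 libraries of a group agreed within counting noise (smallest chi-square per degree of freedom 63.1 over 49 pairs). The summed RPM of endothelial, epithelial, ciliated and mesenchymal markers was above 0 in every library. This cannot tell lung from other tissues, since sham C3H heart held 50.7 to 141 RPM of the ciliated marker miR-34c-5p.

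miR-7b-5p, known from neurons and endocrine cells, rose from 4.34 to 8.86 RPM in the sham libraries to 92.5, 162, 244, 182, 249, 231 and 259.9 RPM in irradiated replicates 1 to 7. Every irradiated library was above every sham library, and the lowest value was that of replicate 1. miR-184-3p, known from the lens and neural tissue, lay between 2.33 and 6.11 RPM in sham lung and read 113, 88.9, 89.4, 67.3, 83.5, 54.3 and 77.3 RPM in irradiated replicates 1 to 7, again with no overlap. Their adjusted p-values were 2.93e-15 and 2.24e-11 (limma).

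**Figure D1:**
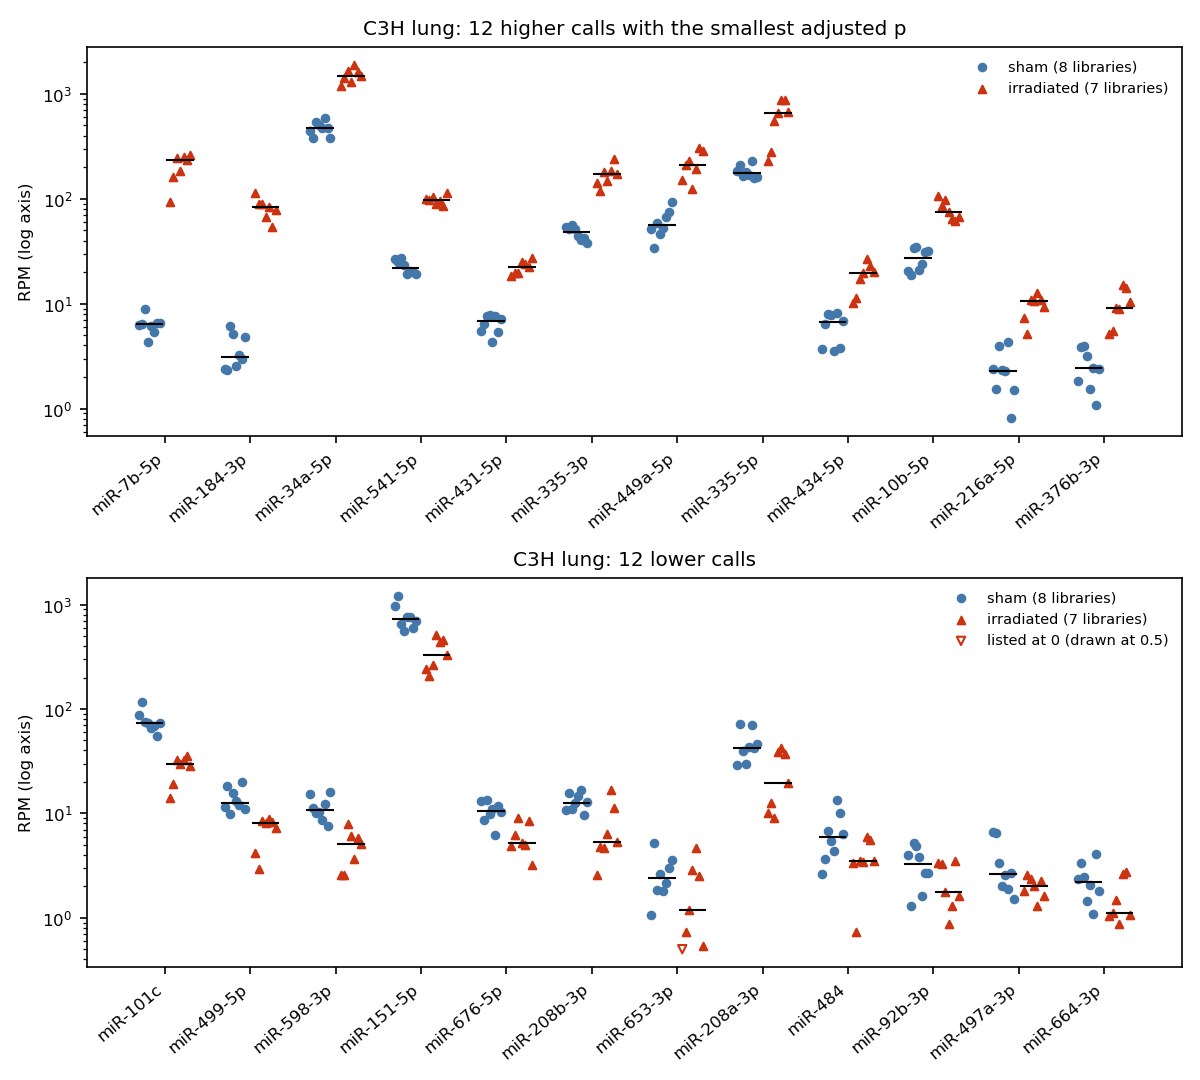
RPM on a log axis in each of the 8 sham (circles) and 7 irradiated (triangles) C3H lung libraries, with a bar at the group median, for the 12 higher calls with the smallest adjusted p (top) and the 12 lower calls (bottom), where an open mark drawn at 0.5 stands for 0 RPM. The irradiated libraries of miR-7b-5p, at 92.5 RPM or more, lie above all sham libraries, at 8.86 RPM or less, whereas groups overlap for several lower calls under 10 RPM.

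Among the miRNAs of the p53 and DNA damage list, miR-34a-5p rose by 1.57 ± 0.16 on the log2 scale (adjusted p = 6.41e-10, limma). Its sham libraries held 446, 378, 533, 505, 467, 594, 475 and 382 RPM and its irradiated libraries 1191, 1399, 1658, 1286, 1892, 1606 and 1460.3 RPM. The groups did not overlap, and the lowest irradiated value stood well above the highest sham value. Of the 8 tested members of this list 1 was called, against 9.71% of all tested miRNAs, and with no fold minimum 2 rose (miR-34a-5p and miR-215-5p, at 0.92) and 2 fell (miR-192-5p at -0.67 and miR-194-5p at -0.73), beside 16.3% higher and 17.1% lower over all tested. The miR-34b and miR-34c strands, which come from another transcript, had log2 changes between -0.40 and 0.30, none of which passed the test.

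The miR-449 cluster, made in multiciliated cells, was higher while the other miRNAs of the ciliated list were not called. miR-449a-5p had a median of 55.7 RPM (33.7 to 93.8) in sham and 212 RPM (125 to 303) in irradiated lung, without overlap, and rose by 1.51 ± 0.26 on the log2 scale (adjusted p = 3.06e-05, limma). miR-449c-5p went from a median of 2.75 to 10.4 RPM, and miR-449a-3p from 0.289 to 3.16 RPM (adjusted p = 0.0426). The call of miR-449a-3p, with at most 18 reads per library, was lost when 9 of the 15 libraries were left out in turn. Of 7 tested ciliated list members 3 were called higher, against 6.29% of all tested miRNAs, and the median log2 change was 0.30, beside -0.08 over all 350 miRNAs. The summed RPM of the list, mostly miR-34c-5p, overlapped between the groups (3410 to 5246 in sham, 2968 to 6203 after irradiation).

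miR-21a, a miRNA raised in wound repair and fibrosis, was the most abundant call. miR-21a-5p was counted at 21226, 23316, 20929, 24624, 23996, 22448, 17568 and 20369 RPM in the sham libraries and at 50385, 40028, 92558, 66642, 102699.8, 92472 and 84381 RPM in irradiated replicates 1 to 7. Replicates 1 and 2 were the lowest of the irradiated group and still above every sham library. The fitted log2 change was 1.501 ± 0.41 with all libraries and 1.73 without those 2 (adjusted p = 0.00509 and 0.00439, limma). The passenger strand miR-21a-3p went from a median of 14.5 to 61.3 RPM, a change of 1.47 ± 0.36, and was not called within letter A alone.

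The inflammation list held further miRNAs that passed the test. miR-146b-5p had a median of 1286 RPM (1185 to 1449) in sham and 2872 RPM (2427 to 4049.9) in irradiated lung, a log2 change of 1.21 ± 0.32. This call was lost below the fold minimum in edgeR (0.97), DESeq2 (0.99) and with TMM factors (0.95), within letter B alone (1.11), without replicates 1 and 2 (1.13), and without irradiated replicate 1 (1.10) or 7 (1.15). Its other strand miR-146b-3p went from a median of 1.11 to 5.02 RPM and was not called within letter A alone. miR-146a-5p, 2 substitutions away (A18G and C21U, from the 5′ end of miR-146b-5p), changed by 0.46 (adjusted p = 0.0478, limma) and no longer passed without replicates 1 and 2 (adjusted p = 0.29). Of the 9 tested list members 3 were called higher (6.29% of all tested miRNAs were) and none lower, and 6 passed the test with no fold minimum, all higher (16.3% of all tested). miR-155-5p (0.35), miR-147-3p (1.11) and miR-9-5p (-0.05) did not pass, and the median log2 change was 1.11 beside -0.08 over all tested. The summed RPM of the list, mostly miR-21a-5p, was 25863 to 33641 in sham and 54468 to 115007 in irradiated libraries.

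Strands cut from 1 hairpin could be compared in 86 cases. In 10 of these at least 1 strand was called, and for miR-335, miR-449a, miR-146b and miR-21a both strands were called, always in the higher direction. miR-335, located in an intron of the imprinted gene Mest (chr6:30741299-30741396, plus strand), rose on both strands.
miR-335-5p: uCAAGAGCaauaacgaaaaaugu
miR-335-3p: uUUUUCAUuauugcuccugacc
miR-335-5p held 157 to 229 RPM (median 175) in sham and 227, 281, 548, 652, 877, 880.5 and 677 RPM in irradiated replicates 1 to 7, so that replicate 1 fell within the sham range and replicates 1 and 2 were lowest. Its log2 change was 1.35 ± 0.24 and became 1.67 without those 2 libraries. miR-335-3p went from a median of 47.8 RPM (38.2 to 56.5) to 171 RPM (119 to 237), without overlap. Neither strand was called within letter A alone, where the changes were 0.75 and 1.12, and in letter B they were 1.80 and 1.87 (5p and 3p). In contrast, miR-151-5p was lower by 1.498 ± 0.28 while miR-151-3p had a log2 change of -0.27 (adjusted p = 0.53, limma).

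The Dlk1-Dio3 cluster, a run of maternally expressed miRNAs active in fetal and stem cells, held 5 of the higher calls. Its listed hairpins span chr12:109563692-109743795 between the genes Dlk1 and Dio3. Of 24 tested members 5 were called higher (6.29% of all tested miRNAs were) and none lower, and 12 passed the test with no fold minimum, all of them higher (16.3% of all tested). The other 12 did not pass, and 5 of these had a log2 change below 0, such as miR-136-3p at -0.57. The median log2 change was 0.57, or 1.00 when only the library total was used for scaling, beside -0.08 and 0.27 over all tested miRNAs. The summed RPM of all listed members was 304 to 387 in the sham and 702 to 989 in the irradiated libraries, with no overlap. Without replicates 1 and 2 the median was 0.71 and 5 members were called.

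The called members were miR-541-5p, miR-431-5p, miR-434-5p, miR-376b-3p and miR-376a-3p.
miR-541-5p: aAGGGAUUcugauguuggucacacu
miR-431-5p: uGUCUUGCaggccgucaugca
miR-434-5p: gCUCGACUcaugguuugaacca
miR-376b-3p: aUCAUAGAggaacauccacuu
miR-376a-3p: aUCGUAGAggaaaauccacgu
miR-541-5p had a median of 21.9 RPM (19.1 to 27.2) in sham and 97.3 RPM (85.7 to 113) in irradiated lung, a narrow range in both groups (log2 change 1.64 ± 0.18, adjusted p = 6.76e-09, limma). miR-431-5p, whose hairpin lies antisense to an exon of Rtl1, went from a median of 6.85 RPM (4.34 to 7.81) to 22.4 RPM (18.4 to 27.3), again without overlap. miR-434-5p, also antisense to Rtl1, went from 6.70 RPM (3.57 to 8.15) to 19.6 RPM (10.1 to 26.6), with a change of 1.18 at the fold minimum that fell under it in 7 of the 15 runs leaving out a library. miR-376b-3p went from 2.43 RPM (1.08 to 3.97) to 9.12 RPM (5.18 to 15.1), and was not called within letter A alone. miR-376a-3p, 3 substitutions away from it, was at or below 1.63 RPM in sham and reached 8.61 RPM, with a call that was lost in 4 of the 15 runs leaving out a library.

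**Figure D2:**
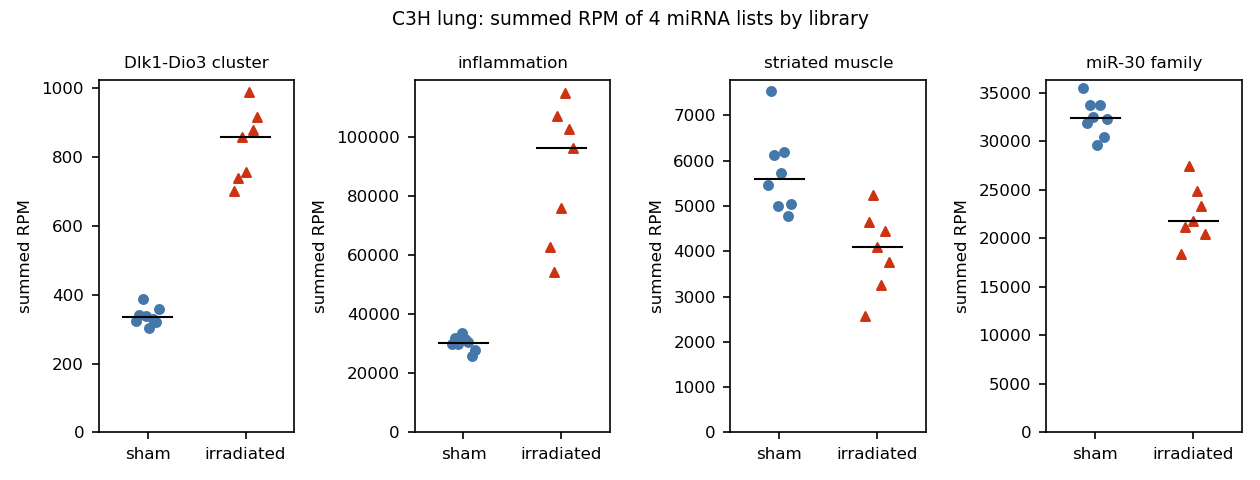
Summed RPM of 4 miRNA lists in each of 8 sham (circles) and 7 irradiated (triangles) C3H lung libraries, with a bar at the group median and axes from 0. The Dlk1-Dio3 sum was 702 RPM or more after irradiation against 387 RPM or less in sham, whereas the striated muscle sums, 2578 to 5237 against 4773 to 7535 RPM, overlapped in 1 irradiated library.

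Of 4 tested miRNAs encoded in the Hox gene clusters 2 were called higher (6.29% of all tested were), and miR-10a-3p fell with no fold minimum (-0.79, adjusted p = 0.031, limma). Of these 2, miR-196b-5p passed the count filter although no sham C3H lung library held 10 reads of it. The count of 2 is therefore no result about the list. miR-10b-5p, located at chr2:74726070-74726137 within introns of Hoxd3 and Hoxd4, went from a median of 27.5 RPM (18.9 to 34.98) to 74.2 RPM (60.8 to 106), with no overlap and a log2 change of 1.19 ± 0.23.
miR-10b-5p: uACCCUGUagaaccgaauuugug
miR-10a-5p, which differs from it by A12U (counted from the 5′ end of miR-10b-5p) and is far more abundant, had a log2 change of -0.46 (adjusted p = 0.10, limma). The rise of miR-10b-5p was under the fold minimum without replicates 1 and 2, at 1.05, within letter B alone, at 0.93, and in 5 of the 15 runs leaving out a library. miR-196b-5p, hosted by Hoxa9, had at most 2 reads in any sham library and 2 to 17 reads in the irradiated ones, which made it at least 2.80-fold higher against a floor of 3 reads per sham library. It was not called without irradiated replicate 1 (adjusted p = 0.059, limma) and was not tested without replicates 1 and 2, so that no Hox cluster miRNA was called there. miR-216a-5p, a miRNA of the exocrine pancreas, went from 2.30 RPM (0.812 to 4.35) to 10.6 RPM (5.14 to 12.8), without overlap, with a change of 1.55 ± 0.31.

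The other 2 higher calls were sparse. miR-129-5p, a brain miRNA, went from a median of 1.47 to 4.77 RPM and was not called without replicates 1 and 2 (1.07) or without sham replicate 7 (1.00). It was the 1 call among 7 tested neural miRNAs (6.29% of all tested were called higher), of which 2 had a change above 0. Their median log2 change was -0.22, and 0.05 with TMM factors and 0.34 with library size alone. miR-501-3p read 31.9 RPM in irradiated replicate 1 and 1.73 to 6.61 RPM in the other 6, against 0 to 2.45 RPM in sham. Its log2 change of 1.54 ± 0.56 became 0.87 without replicates 1 and 2 (adjusted p = 0.21, limma), so that this call depended on them.

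Several lower calls belonged to striated muscle. The myosin miRNA miR-499-5p fell by 1.46 ± 0.23 on the log2 scale (adjusted p = 1.22e-05, limma), from a median of 12.6 RPM (9.78 to 19.8) to 8.05 RPM (2.94 to 8.87), without overlap. miR-208a-3p, from the adult cardiac myosin gene, was 42.5 RPM (29.3 to 71.2) in sham and 19.5 RPM (9.12 to 42.5) after irradiation, with 3 of the 7 irradiated libraries inside the sham range. Its 3 irradiated libraries of letter A read 9.12 to 12.5 RPM and the 4 of letter B 19.5 to 42.5 RPM, and within letter B alone the change was -0.94, under the fold minimum. miR-208b-3p went from 12.7 RPM (9.75 to 16.8) to 5.35 RPM (2.59 to 16.7), and its change of -1.38 ± 0.34 became -1.16, under the fold minimum, without replicates 1 and 2. It was also under it in edgeR (-1.15) and within letter B alone (-1.09), and just under it in DESeq2 (-1.17).

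Of the 6 tested striated muscle miRNAs 3 were called lower (3.43% of all tested miRNAs were) and 5 passed the test with no fold minimum, all lower (17.1% of all tested), with a median log2 change of -1.13 beside -0.08 over all tested. The sixth, miR-206-3p, had a log2 change of 1.23 (adjusted p = 0.57). The 2 further ones were miR-133a-3p, at -0.87, and the most abundant, miR-1a-3p, at -0.60 (adjusted p = 0.025, limma) with 4544 to 7311 RPM in sham and 2500.2 to 5115 RPM in irradiated lung. With library size alone as scaling, the median was -0.77 and miR-208a-3p, miR-208b-3p and miR-499-5p were no longer past the fold minimum. In whole tissue, fewer cells of a type and less of a miRNA per cell cannot be told apart.

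The clearest lower call was miR-101c, whose log2 change was -1.87 ± 0.25 (adjusted p = 3.91e-07, limma). It was counted at 87.8, 116, 74.9, 73.1, 65.5, 67.9, 55.5 and 73.4 RPM in sham replicates 1 to 8 and at 13.98, 19.1, 32.4, 29.9, 32.6, 35.2 and 28.6 RPM in irradiated replicates 1 to 7. The groups did not overlap, and replicates 1 and 2 were lowest; without them the change was -1.71. The parent miR-101a-3p went from a median of 8672 to 4832 RPM, a change of -1.01 ± 0.17 that passed the test but not the fold minimum, and miR-101b-3p changed by -0.82. All 3 tested miR-101 miRNAs passed with no fold minimum in the lower direction, as 17.1% of all tested did, and 1 of the 3 was called lower (3.43% of all tested). They are not independent members, since miR-101c is a stretch of miR-101a-3p, and the seeds of the 3 are shifted against each other.

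Among the other lower calls, miR-151-5p, hosted with its partner strand by the focal adhesion kinase gene, was abundant. It went from a median of 729 RPM (553 to 1216) to 332 RPM (208 to 506), without overlap, and replicates 1 to 3, all of letter A, held the 3 lowest values at 208 to 262 RPM. Within letter B alone miR-151-5p was not called. miR-598-3p went from 10.8 RPM (7.58 to 15.9) to 5.08 RPM (2.57 to 7.94), where 1 irradiated library lay within the sham range. miR-676-5p went from 10.6 RPM (6.25 to 13.4) to 5.18 RPM (3.21 to 9.12) and was past the fold minimum under none of the 4 other scalings.

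The last 5 lower calls had sham medians under 10 RPM and overlapping groups. miR-484 went from 5.90 RPM (2.64 to 13.3) to 3.48 RPM (0.735 to 6.00). miR-92b-3p went from 3.27 RPM (1.30 to 5.19) to 1.77 RPM (0.863 to 3.52), and miR-653-3p, in an intron of the calcitonin receptor gene, from 2.39 RPM (1.06 to 5.18) to 1.18 RPM (0 to 4.69). miR-497a-3p went from 2.63 RPM (1.504 to 6.59) to 2.01 RPM (1.30 to 2.57), and miR-664-3p from 2.21 RPM (1.09 to 4.06) to 1.10 RPM (0.863 to 2.76). Without irradiated replicates 1 and 2, miR-484 (-0.88), miR-653-3p (adjusted p = 0.053, limma) and miR-664-3p (adjusted p = 0.060) were not called. None of these 5 was called by edgeR or DESeq2, and their reads were few, at most 49 in any library.

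Over all tested miRNAs, 44 (12.6%) had normalised values that did not overlap between the groups. In plain RPM, 16 of the 22 higher calls and 3 of the 12 lower calls had no overlap. The share over all tested miRNAs is not given for plain RPM, and the calls were selected on these same libraries. These counts of calls therefore cannot be compared with the 12.6%. The split of higher to lower calls depended on the scaling. It was 22 to 12 after quantile normalisation, 27 to 9 with TMM factors, 28 to 7 in DESeq2 and 41 to 3 with library size alone, where the median of all 350 log2 changes was 0.27 instead of -0.08. Of the 34 calls, 24 were called under all 4 other scalings, 21 higher and 3 lower (miR-101c, miR-598-3p and miR-151-5p).

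**Figure D3:**
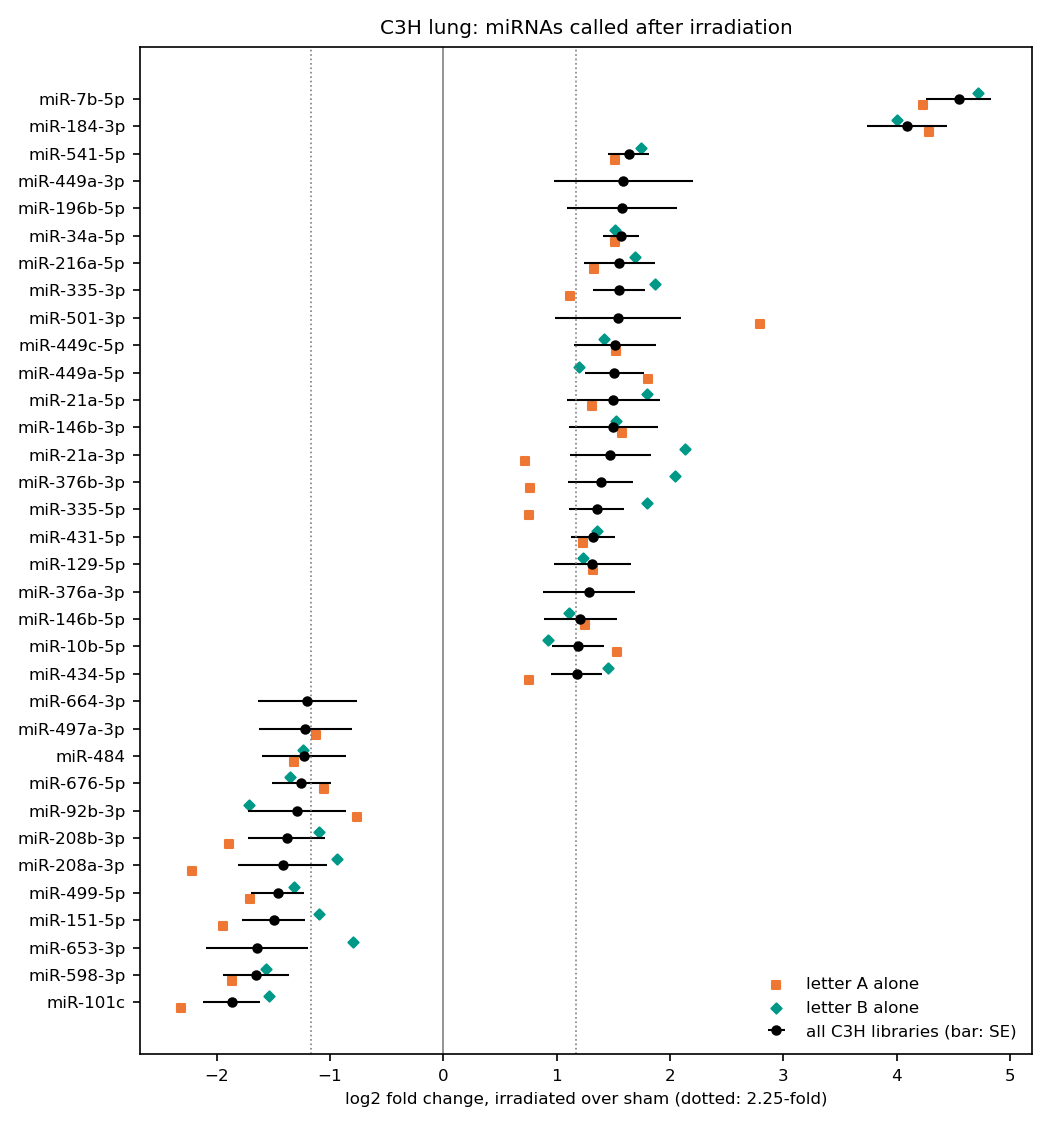
Fitted log2 fold change of the 34 called miRNAs, irradiated over sham C3H lung, with bars of 1 SE (7 against 8 libraries), beside the values fitted within letter A (squares) and letter B (diamonds) alone where these could be fitted, and dotted lines at the fold minimum. miR-7b-5p at 4.55 and miR-184-3p at 4.09 stand apart from all others, and both letters lie on the same side of 0 for each miRNA.

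Within letter A alone, 36 miRNAs were called, 18 of them among the 34, and within letter B alone 27, 22 of them among the 34. Tested calls lost in letter A were miR-335-3p, miR-335-5p, miR-434-5p, miR-376b-3p, miR-676-5p, miR-21a-3p, miR-146b-3p, miR-484, miR-92b-3p, miR-497a-3p and miR-501-3p. Those lost in letter B were miR-151-5p, miR-10b-5p, miR-208b-3p, miR-146b-5p, miR-653-3p and miR-208a-3p. The change was then compared between the letters. It differed for 17 of 348 miRNAs (4.89%), which were led by miR-19b-3p, miR-1198-5p, miR-15a-5p, miR-532-3p and miR-191-5p. miR-19b-3p, of the miR-17-92 cluster, had a median of 226 RPM in sham and 95.5 RPM in irradiated libraries of letter A, and 141 and 192 RPM in those of letter B (difference in log2 change 1.42 ± 0.30, adjusted p = 0.0199, limma). None of the 34 calls was among the 17. With no fold minimum, 2 of the calls differed between the letters, miR-335-3p by 0.82 (adjusted p = 0.032, limma) and miR-335-5p by 0.93 (adjusted p = 0.044), both larger under B. Only 1 miRNA was called in this test without irradiated replicate 1, 4 without sham replicate 2 or without irradiated replicate 6, and 46 without irradiated replicate 3, so single libraries decided how many differed. Between the letters, 0 miRNAs were called in sham lung by limma (53 had an unadjusted p under 0.05) and 5 in irradiated lung.

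Some families held no call but members that passed the test with no fold minimum, as 16.3% of all tested miRNAs did in the higher and 17.1% in the lower direction. The miR-30 family, abundant in lung epithelium, had 5 of 11 tested members past the test, all lower, and 6 that did not pass (-0.28 to 0.18). miR-30c-5p came nearest to a call, with a median of 2646 RPM (2146 to 3279) in sham and 1364 RPM (994 to 1623) in irradiated lung and a change of -1.13 ± 0.15 (adjusted p = 3.91e-07, limma). The groups did not overlap for it, nor for the summed RPM of the family, at 29656 to 35467 and 18400.4 to 27448. Among 5 tested miR-29 miRNAs, repressors of collagen genes, miR-29b-3p (-0.57) and miR-29a-5p (-1.02) fell and 3 did not pass the test. In the miR-26 family miR-26a-5p (-0.76) and miR-26b-5p (-0.75) fell out of 5 tested.

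miR-221-3p (0.98 ± 0.16) and miR-221-5p (0.75) rose out of 4 tested strands of miR-221 and miR-222, from a median of 304 to 682 RPM for miR-221-3p, with no overlap. The fibroblast miRNAs miR-199a-3p and miR-199b-3p, of identical sequence and not separable by reads, rose by 0.61 and 0.65, as the 2 higher of 10 tested mesenchymal miRNAs, while miR-145a-3p fell (-0.91). Of 12 tested miRNAs of the X-linked miR-322 cluster 3 rose and none fell, against 16.3% higher and 17.1% lower over all tested. Of 12 tested epithelial miRNAs miR-183-5p (0.73) and miR-182-5p (0.64) rose and miR-200b-3p (-0.55) fell, a count near the shares over all tested miRNAs.

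Blood cell miRNAs were examined as other sources of RNA. None of 5 tested erythrocyte miRNAs passed the test (log2 changes 0.26 to 0.93), and their summed RPM overlapped, 198 to 1249 in sham and 339 to 3061 after irradiation. Neither of 2 tested lymphocyte miRNAs passed, with miR-150-5p at -0.43 and miR-342-3p at 1.00 (adjusted p = 0.055, limma). Of 5 myeloid and pan-leukocyte miRNAs, miR-223-5p rose (0.83) while miR-223-3p (0.09) and both miR-142a strands (0.06 and 0.18) did not pass. Their summed RPM was 2706 to 4250 in sham libraries, 2058 and 2676 in irradiated replicates 1 and 2, 3401 in replicate 3 and 4631 to 6412 in replicates 4 to 7. Irradiated libraries thus lay on both sides of the sham range, and the median log2 change of the list was -0.16 within letter A and 0.63 within letter B. The part of these cells in the other results was not tested. Of the members that were not tested, miR-511-5p (myeloid) and miR-342-5p (lymphocyte) were at 0 in all 15 libraries.

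The 10 most abundant miRNAs held 76.5% ± 1.36 of all reads in sham (SD, n = 8) and 75.9% ± 1.69 in irradiated lung (SD, n = 7). Within this nearly constant sum, the shares of 5 miRNAs changed (exact permutation test two-sided, adjusted over the 10). The endothelial miR-126a-3p, the most abundant by far, took 38.7% ± 2.40 of reads in sham and 31.2% ± 4.36 in irradiated lung (adjusted exact p = 0.00622), with 6 of 7 irradiated libraries below every sham library. miR-21a-5p went from 2.18% ± 0.23 to 7.56% ± 2.37 (adjusted exact p = 0.00311), higher in 7 of 7. let-7i-5p went from 2.87% ± 0.34 to 4.12% ± 0.60, with 5 of 7 irradiated libraries above every sham library. miR-16-5p went from 7.15% ± 1.37 to 9.19% ± 1.42, with 3 of 7 above (adjusted exact p = 0.0518 without irradiated replicates 1 and 2). miR-26a-5p went from 4.86% ± 0.96 to 3.22% ± 0.32, with 1 of 7 below every sham library.

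**Figure D4:**
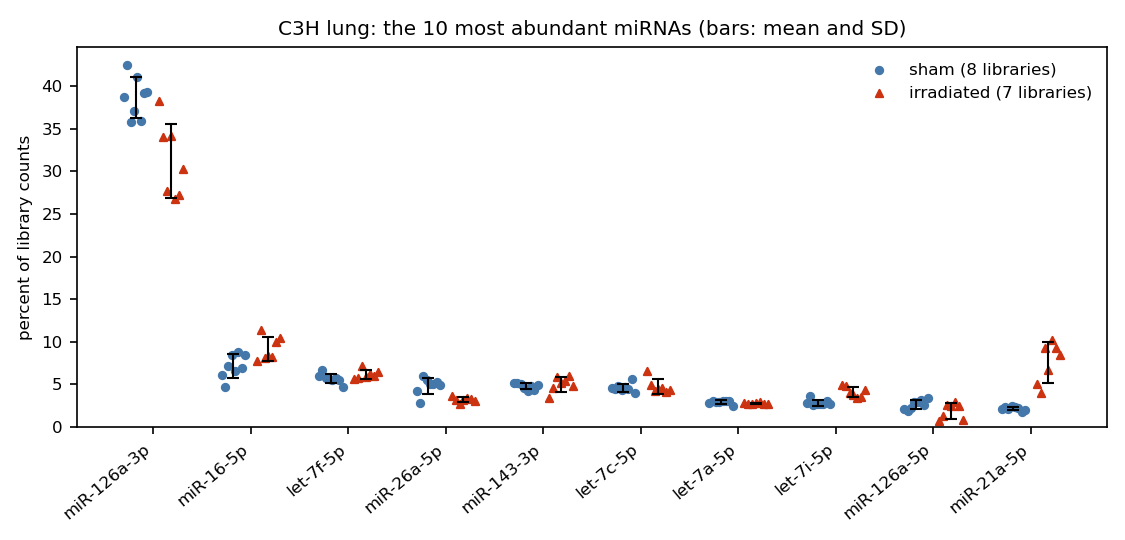
Percent of all miRNA reads taken by the 10 most abundant miRNAs of sham C3H lung, in each of 8 sham (circles) and 7 irradiated (triangles) libraries, with bars for mean and SD. The share of miR-126a-3p was 38.7% in sham and 31.2% in irradiated lung on average, and that of miR-21a-5p 2.18% and 7.56%.

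For miR-126a-3p, miR-16-5p and let-7i-5p the fitted log2 changes were 0.00, -0.04 and 0.29 and did not pass. Quantile normalisation fixes the value that goes with each rank, and miR-126a-3p ranked first in every library, so the fit could not show a change of it. A fall in the share of 1 miRNA of this size also raises the shares of others. When miR-126a-3p was left out of the totals, the shares of miR-21a-5p, let-7i-5p and miR-26a-5p passed the test as before. That of miR-16-5p no longer passed (adjusted exact p = 0.182), and those of let-7a-5p (-0.75 percentage points) and miR-126a-5p (-1.63) now did.

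More miRNAs were detected after irradiation. At least 1 read was counted for 590 ± 27.6 miRNAs in irradiated (SD, n = 7; 542 to 620) and 542 ± 8.46 in sham libraries (SD, n = 8; 532 to 550), and 6 of the 7 irradiated libraries were above all sham libraries (exact permutation test, two-sided p = 0.00186). After thinning each library to 2722817 reads the numbers were 559 ± 20.4 and 515 ± 10.04, above all sham libraries in 7 of 7 (exact permutation p = 0.000311). With at least 10 reads required, the difference was 19.1 in place of 47.5 (exact permutation p = 0.00559). The difference was 33.6 within letter A (exact permutation p = 0.171, where 3 against 4 libraries cannot go below 0.0571) and 57.2 within letter B (exact permutation p = 0.0286).

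The C3H lung values were set beside C57 lung, 15 sham and 5 irradiated libraries taken at month 6 from mice of both sexes, so that strain cannot be told apart from time and sex. The change after irradiation differed for 1 of 350 miRNAs (0.286%), miR-184-3p, by 2.44 ± 0.48 on the log2 scale (adjusted p = 0.00429, limma). In C57 lung its median was 5.13 RPM (1.36 to 22.1) in sham and 13.996 RPM (12.3 to 31.2) in irradiated libraries, with a change of 1.65, against 4.09 in C3H lung. miR-7b-5p, with 24.8 RPM in sham and 857 RPM in irradiated C57 lung, changed by 4.78 there and by 4.55 in C3H lung, and the difference did not pass the test (adjusted p = 0.78). Of the 34 C3H calls 33 had the same sign in C57 lung, with miR-501-3p the exception at -0.05, and of all 350 tested miRNAs 255 had.

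Heart lies within the thorax field, and the hearts of the same 15 C3H mice were sequenced. The change was compared in a joint fit of both tissues, whose lung values differ somewhat from those of the lung fit above. Between C3H lung and C3H heart it differed for 24 of 343 miRNAs (7.0%), led by miR-7b-5p, miR-34b-3p, miR-34c-5p, miR-1983 and miR-210-3p. miR-7b-5p stayed between 3.55 and 9.62 RPM in irradiated hearts and 3.58 and 8.76 RPM in sham hearts, a log2 change of 0.13, against 4.38 for lung in the joint fit, a difference of 4.26 ± 0.35 (adjusted p = 2.18e-10, limma). The reverse was found for miR-34b-3p and miR-34c-5p, which rose in heart by 2.12 and 2.55 (miR-34c-5p from a median of 72.3 to 392 RPM) and changed by -0.39 and -0.03 in lung. Lung kept a miR-34c-5p level of 3545 RPM in sham and 4020 RPM after irradiation, above that of heart in both groups.

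miR-1983 had at most 1.02 RPM in sham lung and reached 2.67 RPM after irradiation, while in heart it went from a median of 10.9 to 3.40 RPM (difference 3.01 ± 0.48). miR-210-3p, a hypoxia miRNA, had 24.5 RPM in sham and 25.6 RPM in irradiated lung (log2 change -0.43 in the joint fit) and rose by 0.82 in heart. Of the other higher calls in lung, miR-184-3p also rose in heart, by 2.16, which was 1.94 less than the 4.09 of lung. The change was also more positive in lung for miR-335-3p, miR-376b-3p, miR-449c-5p and miR-146b-3p, at 1.47, 1.603, 1.73 and 1.95 in the joint fit, and they did not pass the test in heart (0.26, 0.18, -0.41 and -0.12). Of the lower calls, miR-208b-3p and miR-676-5p differed from heart, where their changes of 0.52 and 0.19 did not pass. For miR-34a-5p (1.27 in heart and 1.55 in lung), miR-21a-5p (1.51 and 1.85) and miR-146b-5p (1.34 and 1.49) the difference from heart did not pass the test (adjusted p = 0.42, 0.68 and 0.82, limma).

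**Figure D5:**
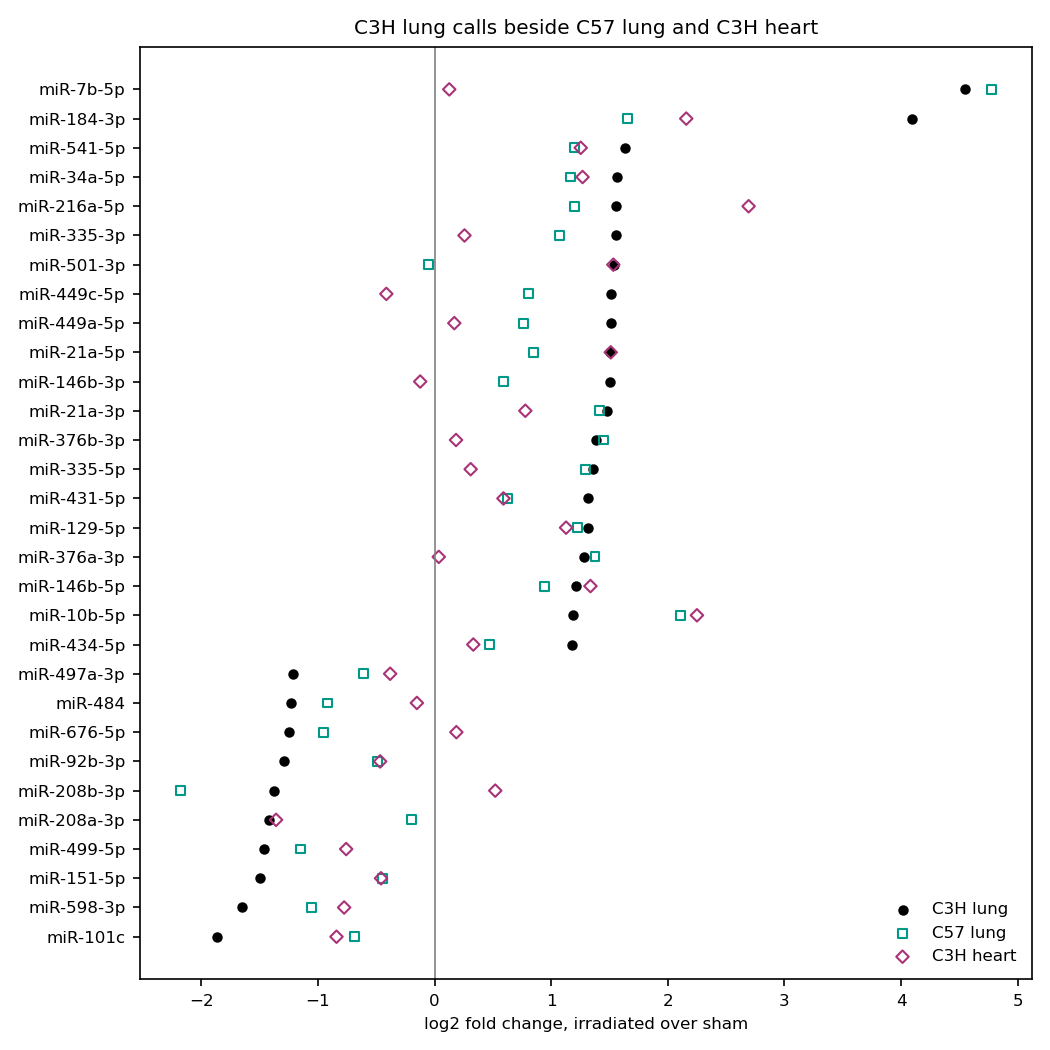
Fitted log2 fold change after irradiation of the called C3H lung miRNAs that were also tested in heart, in C3H lung (filled circles), C57 lung (squares) and C3H heart (diamonds). Lung values come from the lung fit and heart values from the joint fit of both tissues. miR-7b-5p changed by 4.55 in C3H lung, 4.78 in C57 lung and 0.13 in C3H heart.

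Without irradiated replicates 1 and 2, the number of miRNAs whose change differed between lung and heart was 40 in place of 24, and 20 were shared. With the animal as a replicate block in this paired comparison it was 23, all among the 24.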

How the data were processed

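Small RNA libraries (QIAseq miRNA Library Kit, NextSeq 550) were made from whole tissue, 1 library per animal and tissue, and each C3H animal has its own code in the labels. The authors aligned the reads to mm10 with the BaseSpace Small RNA application and deposited raw counts per mature miRNA, after rejecting libraries with few miRNA reads. The use of molecular identifiers and the assignment of reads matching several miRNAs were not given in the sources used here, so the floor of 3 reads covers counting error only, whereas SEs and SDs cover the spread between animals. Every column used matched the title of 1 sample, and 0 columns were left unmatched.

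Counts of the 35 lung libraries of both strains were filtered with filterByExpr (10 counts, 15 in total; 350 of 1915 miRNAs kept), and fitted as 4 groups with voom, quantile normalisation and limma 3.58.1 in R 4.3.3. p-values were adjusted by the Benjamini-Hochberg method over all tested miRNAs, and a call needed an adjusted p under 0.05 and the fold minimum (1.17 on the log2 scale). Differences between strains and between letters were interaction terms, and that between lung and heart came from a joint fit of 15 lung and 15 heart libraries of the C3H mice. Shares and numbers of detected miRNAs were compared by exact permutation tests (scipy 1.17.1). edgeR 4.0.16, DESeq2 1.42.0, other scalings, filters, letters and left-out libraries were alternatives, and leaving out irradiated replicates 1 and 2 together was chosen after seeing the data. The named miRNAs were all calls, the members of the lists and the 5 differences with the smallest p in each interaction. The members and lists were chosen with earlier results of these data known. The scripts were tested on simulated data.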

Additional observations from a re-analysis of the deposited data

Results flagged for a closer look

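Of 92 sets of 7 or 8 values tested for a lone extreme value, 7 had one, where chance gives about 1 in 20. The gap of the extreme value to the nearest of its group, as a fraction of the range of the group, was 0.626 for the lowest irradiated library of miR-216a-5p, 0.746 for the lowest sham library of miR-129-5p and 0.796 for the lowest irradiated library of miR-484 (normalised log2 values). It was 0.638 for the highest irradiated share of let-7c-5p, 0.641 for the lowest sham share of let-7a-5p and 0.598 for the highest sham share of let-7i-5p. The lowest irradiated total count, that of replicate 2, gave 0.584.

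The change after irradiation differed between the letters B and A for 17 miRNAs by limma, led by miR-19b-3p (1.42 on the log2 scale, B minus A), miR-1198-5p (-1.65), miR-15a-5p (1.29), miR-532-3p (-1.52) and miR-191-5p (-1.21). It differed between C3H and C57 lung for 1 miRNA, miR-184-3p, by 2.44. Between C3H lung and C3H heart it differed for 24 miRNAs, led by miR-7b-5p (4.26, lung minus heart), miR-34b-3p (-2.50), miR-34c-5p (-2.58), miR-1983 (3.01) and miR-210-3p (-1.26).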

How the results depend on the processing

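The number of calls in C3H lung was 34, and 29 to 34 when each library was left out in turn. It was 13 when each library had to hold 10 counts or more, a filter that tests fewer miRNAs, and 117 with no fold minimum. In the other runs it lay between 26 and 45. Of the 34 calls, 20 held in all 15 runs leaving out a library, miR-653-3p in the 10 that tested it, and 11 in every run that tested them. Over the single calls and settings, 727 kept their call, 113 lost it with the same sign, and none changed sign.

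The 17 differences between letters became 9 with a filter of 1 count in any library and 1 to 46 with a library left out, at 1 without irradiated replicate 1, 4 without sham replicate 2 or irradiated replicate 6, 5 without sham replicate 7, 7 without sham replicate 8, 8 without irradiated replicate 2, 11 without irradiated replicate 4 or 5, 29 without sham replicate 3 and 46 without irradiated replicate 3. miR-184-3p was the 1 difference from C57 lung in every run, 1 with each library left out, except with the filter of 10 counts or more in each library. There, 0 were called by limma (38 at an unadjusted p under 0.05) and miR-184-3p was not among the tested. The 24 differences from heart became 7 under that filter, 40 without irradiated replicates 1 and 2, 19 to 29 with a library left out and 23 with the animal as a replicate block. Their split of higher to lower was 13 to 11, and 24 to 3 with library size alone. Lung and heart deviations of an animal correlated between -0.46 and 0.21, over 0.1 in 4 of 15 animals.

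The difference in detected miRNAs was 33.6 within letter A and 42.4 to 55.4 with a library left out. That in log2 total counts, -0.028, was 0.041 within letter B, 0.024 without irradiated replicates 1 and 2, and -0.055 to 0.036 with a library left out, the highest without irradiated replicate 2. Of the differences in share, those of let-7f-5p, miR-143-3p and let-7c-5p, which did not pass the test, turned to -0.33, -0.56 and -0.55 percentage points when miR-126a-3p was left out of the totals. That of let-7c-5p was -0.26 without irradiated replicates 1 and 2 and -0.16 to 0.28 with a library left out. The number of shares past the threshold was 4 to 6 with a library left out. The cause was not tested in any of these cases.

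Calls with few reads are limited by depth, as 13 of the 22 higher and 5 of the 12 lower calls had a sham median under 10 RPM.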

Other observations

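Of the 1915 listed miRNAs, 1565 were not tested and 1004 had no read in any C3H lung library. Among those not tested, 8 had reads in at least 6 of the 7 irradiated and at most 1 of the 8 sham libraries, and 0 had the reverse pattern with at least 7 sham and at most 1 irradiated libraries. They were chosen after their values were seen and no test was made. miR-217-5p, a neighbour of miR-216a, had 19 reads in 6 irradiated libraries and 0 in sham lung. miR-743b-3p and miR-465c-5p had 27 and 24 reads after irradiation and 1 each in sham lung. miR-181b-2-3p had 15 and 1, miR-3069-5p and miR-5103 13 and 1 each, miR-1247-3p 10 and 1, and miR-1969 10 and 2.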
